A study of Mus musculus with 6 samples.

Results

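The mitochondrial ribosomal protein genes were taken as every gene whose symbol is Mrpl or Mrps followed by a number and at most 1 letter, and whose mean over the 6 libraries reached 1 FPKM (a read count per kilobase of exon, divided by the depth of the library). All 78 symbols of that form passed the minimum, out of 9691 genes tested and 18122 rows of the table. The lowest of them, Mrpl33, lay well above the minimum in every library, so no member sat close to it and none was left out.

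The libraries are bulk RNA-seq of mouse CD8+ T cells from lymph nodes, kept for 18 h in wells coated with 1 µg/mL of an antibody to CD3. The medium held 1 µg/mL of an antibody to CD28 together with 20 ng/mL of IL-4 and 50 ng/mL of IFN-α. By the labels, these stimuli served to produce virtual memory cells, which have a memory phenotype without an encounter with their antigen. After culture the cells were sorted on the surface glycoprotein CD44. There were 2 libraries of Dusp2-/- (Dusp2 KO) CD44 very high cells (CD44hi), 2 of WT CD44hi cells, 1 of Dusp2 KO CD44lo cells and 1 of WT CD44lo cells, all given the same stimuli. Dusp2 encodes a nuclear phosphatase that acts on MAP kinases. The labels give no age, sex or strain. They name no separate animals or cultures behind the replicates either, and the p-values therefore reflect only the spread among these libraries, which may be technical.

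Mitochondrial ribosomes translate the few proteins encoded by the mitochondrial genome, which are core subunits of the respiratory chain and of ATP synthase. Their RNA is encoded in the mitochondrion, whereas all of their proteins are encoded in the nucleus, made in the cytosol and imported. They consist of a small subunit, which decodes the mRNA, and a large subunit, which forms the peptide bond and is held at the inner membrane. Some of the proteins have counterparts in bacterial ribosomes and others are specific to mitochondria. T cells need mitochondrial translation when they are activated and proliferate.

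Before the values of these genes, the libraries were checked against their labels. Dusp2 was at 0 and 0.0283 FPKM in Dusp2 KO CD44hi and at 0 in Dusp2 KO CD44lo, while WT CD44hi had 82.6 and 83.9 FPKM and WT CD44lo 116 FPKM. Part of the labels names mice with floxed Rpa1, but Rpa1 ran from 27.4 to 41.4 FPKM and was not lower in the Dusp2 KO libraries. Cd44 was between 65.3 and 79.9 FPKM in CD44hi and between 1.33 and 1.43 FPKM in CD44lo. Xist, the RNA of the inactive X chromosome, was at 15.1 and 15.5 FPKM in Dusp2 KO CD44hi but at 0 in Dusp2 KO CD44lo, and at no more than 0.00641 FPKM in the WT libraries. In CD44hi the genotype and the source of this Xist difference cannot be told apart. All 5 CD8 T cell markers were present, with a summed level of 915 to 1310 FPKM, while the 3 CD4 T cell markers summed to at most 0.422 FPKM. The measured myeloid (3 of 5), NK (2 of 3) and erythroid (2 of 4) markers summed to at most 0.358 FPKM. Of 4 B cell markers 2 were in the table, with sums of 22.4 to 24.7 FPKM in Dusp2 KO CD44hi and 10.1 to 12.6 FPKM in WT CD44hi, 11.4 FPKM in Dusp2 KO CD44lo and 7.2 FPKM in WT CD44lo. Nearly all of that was Cd79b, while Cd79a did not exceed 0.379 FPKM, and the part of these transcripts in the results was not tested. Depth was 43010150 to 56077243 reads in the CD44hi libraries, 23591771 in Dusp2 KO CD44lo and 50311078 in WT CD44lo.

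The 250 bases before the start site are shown for 4 genes on which the results turn: Mrpl2 and Mrps21, whose genotype difference differed between the CD44 fractions, Mrps22, which was higher in Dusp2 KO CD44hi, and Mrpl12, the most abundant member. The sequences are from RefSeq on build GRCm38.p6, written 5′ to 3′ on the strand of the gene. Capitals mark a match to a motif, which is CACGTG (E-box) in Mrpl2, the motif of the respiratory factor NRF1 (GCGC, any base, then TGCGC) in Mrps21 and Mrpl12, and CCGGAAG (ETS-family core) in Mrps22. They lie at chr17:46645971-46646220 on the plus strand, chr3:95871515-95871764 on the minus strand, chr9:98601680-98601929 on the minus strand and chr11:120484387-120484636 on the plus strand, in the order printed.
Mrpl2: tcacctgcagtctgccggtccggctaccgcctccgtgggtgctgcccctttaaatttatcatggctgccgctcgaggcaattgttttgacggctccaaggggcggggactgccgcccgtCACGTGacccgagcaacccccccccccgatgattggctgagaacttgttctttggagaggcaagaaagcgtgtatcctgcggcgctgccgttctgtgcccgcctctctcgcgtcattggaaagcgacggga
Mrps21: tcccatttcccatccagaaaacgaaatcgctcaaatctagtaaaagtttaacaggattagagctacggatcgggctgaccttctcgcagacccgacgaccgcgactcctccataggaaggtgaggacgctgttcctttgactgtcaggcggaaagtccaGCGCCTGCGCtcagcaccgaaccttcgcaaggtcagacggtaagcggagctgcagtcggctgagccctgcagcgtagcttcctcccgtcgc
Mrps22: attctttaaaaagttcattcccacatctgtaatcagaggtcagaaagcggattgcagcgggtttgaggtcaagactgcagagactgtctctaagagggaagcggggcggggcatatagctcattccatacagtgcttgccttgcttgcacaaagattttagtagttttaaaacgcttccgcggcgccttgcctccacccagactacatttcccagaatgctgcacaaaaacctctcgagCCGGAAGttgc
Mrpl12: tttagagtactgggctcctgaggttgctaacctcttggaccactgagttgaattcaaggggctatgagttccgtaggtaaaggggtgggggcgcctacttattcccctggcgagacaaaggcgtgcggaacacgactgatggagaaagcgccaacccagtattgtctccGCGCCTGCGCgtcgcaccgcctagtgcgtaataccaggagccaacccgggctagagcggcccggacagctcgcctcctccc

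Of the 78 genes, 69 had such a window in the RefSeq table, and Mrpl54 was not among them. Searched on both strands, CCGGAAG was found in 17 of these 69 windows (24.6%), against 16.4% of the 7588 windows of all genes tested. The NRF1 motif was in 10 (14.5%, against 9.87%), CACGTG in 5 (7.25%, against 9.15%) and AAGATGGC, the YY1 motif, in 4 (5.8%, against 2.23%). No one of these motifs was shared by most of the genes. Among the 13 genes with a window that were lower in Dusp2 KO CD44hi (described after the levels), the counts were 3, 3, 1 and 1 in the same order. Median GC content was 58.4% in the members' windows and 60% over all windows. A match says only that these letters stand in the window.

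Levels of the 78 genes spanned more than an order of magnitude, from a mean of 105 FPKM for Mrpl12 to 3 FPKM for Mrpl33. The large subunit had 51 of the genes, with a median mean of 23.9 FPKM, and the small subunit 26, with 17.2 FPKM. Mrps30 and Mrps18a were counted with the large subunit, where their products sit in spite of their names. Mrps36 was placed in neither, since its product has been reassigned to the oxoglutarate dehydrogenase complex. Summed over all members, Dusp2 KO CD44hi had 1862 and 1926 FPKM and WT CD44hi had 1988 and 2229 FPKM. The CD44lo libraries had 2079 FPKM in Dusp2 KO and 1789 FPKM in WT. The sum was thus lowest in WT CD44lo and highest in the second WT CD44hi library. These genes took 0.392% to 0.482% of the reads, and the lowest member had at least 438 reads in every library.

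**Figure D1:**
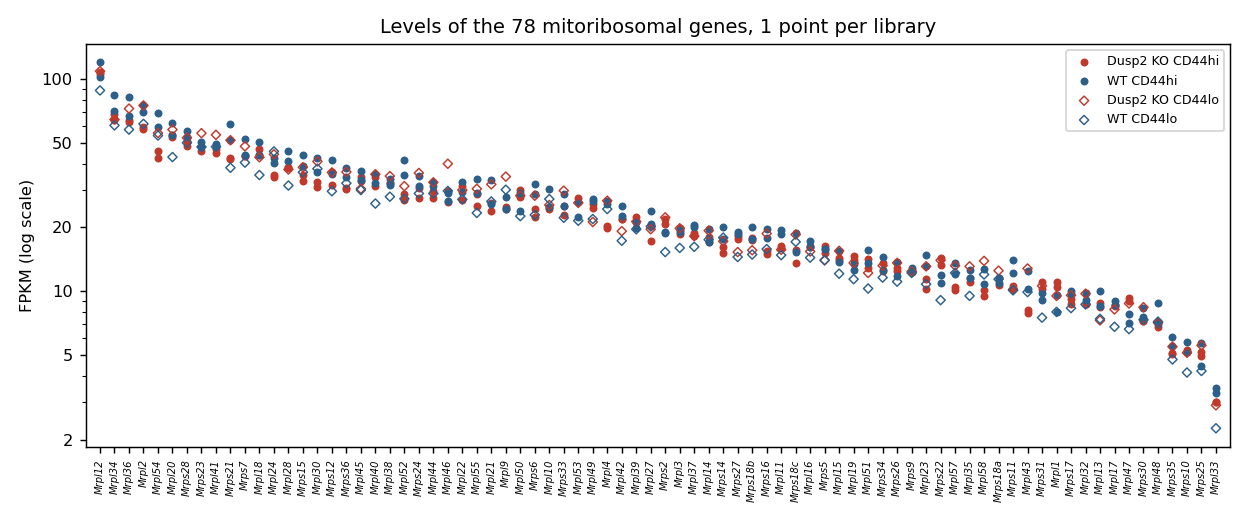
FPKM on a log axis of the 78 genes, ordered from the highest to the lowest mean, with 1 point per library. Filled points are CD44hi and open points CD44lo, red is Dusp2 KO and blue is WT, and most genes lie between 5 and 50 FPKM with the points of a gene close together.

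The most abundant member was Mrpl12, the flexible stalk protein that recruits translation factors. It was at 108 and 106 FPKM in Dusp2 KO CD44hi and 102 and 120 FPKM in WT CD44hi, 109 FPKM in Dusp2 KO CD44lo and 88.4 FPKM in WT CD44lo, so the CD44hi genotypes overlapped. Mrpl34, a small protein with a bacterial counterpart, was at 64.1 and 68.3 FPKM in Dusp2 KO CD44hi and 71.0 and 83.7 FPKM in WT CD44hi, 64.5 FPKM in Dusp2 KO CD44lo and 60.5 FPKM in WT CD44lo. The equally small Mrpl36 was at 62.8 and 63.8 FPKM in Dusp2 KO CD44hi and 66.9 and 82.4 FPKM in WT CD44hi, 72.6 FPKM in Dusp2 KO CD44lo and 57.8 FPKM in WT CD44lo. In both genes the Dusp2 KO CD44hi libraries lay below WT CD44hi without passing the test.

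The lowest member was Mrpl33, at 3.02 and 3.01 FPKM in Dusp2 KO CD44hi and 3.30 and 3.51 FPKM in WT CD44hi, 2.90 FPKM in Dusp2 KO CD44lo and 2.26 FPKM in WT CD44lo. Next came Mrps25, Mrps10 and Mrps35 of the small subunit, all between 4.14 and 6.09 FPKM in every library. Their order among each other changed from library to library.

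Members with defined roles in the particle were then compared one by one. In the stalk base, Mrpl10, which carries Mrpl12, was at 24.5 and 25 FPKM in Dusp2 KO CD44hi and 25 and 30.3 FPKM in WT CD44hi, 25.5 FPKM in Dusp2 KO CD44lo and 27.2 FPKM in WT CD44lo. Mrpl44, a large-subunit protein with a ribonuclease III fold, ran from 27.6 to 32.9 FPKM over the 6 libraries. Mrpl45, which binds the ribosome to the inner membrane at the tunnel exit, ran from 30 to 36.8 FPKM. None of these passed in a comparison. Mrpl58, a peptidyl-tRNA hydrolase that rescues stalled ribosomes, was at 10.1 and 9.54 FPKM in Dusp2 KO CD44hi and 10.8 and 12.7 FPKM in WT CD44hi, 13.9 FPKM in Dusp2 KO CD44lo and 12 FPKM in WT CD44lo. Mrps12, a protein of the decoding site, ran from 29.6 to 41.5 FPKM, and Mrps30 from 7.23 to 8.41 FPKM. The Mrps18 paralogs, which descend from 1 bacterial protein, ran from 10.7 to 12.5 FPKM (Mrps18a), from 14.9 to 20.1 FPKM (Mrps18b) and from 13.6 to 18.9 FPKM (Mrps18c). None of these 6 passed in a comparison either.

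Between Dusp2 KO and WT CD44hi cells, most of the 78 genes were slightly lower in Dusp2 KO and few passed the test. With limma and Benjamini-Hochberg adjustment over all 9691 genes, 15 members fell and 2 rose, and 61 did not pass. Over all genes 13.8% were called lower and 12.9% higher (26.7% in either direction), so 15 of 78 lower stands near the background while the 2 higher stand below it. The median log2 fold change, on the log2(FPKM + 1) scale that understates low genes, was -0.11 over the members and -0.02 over all genes. It was negative in 67 of 78 (85.9%), against 53.1% of all genes. In 38 members both Dusp2 KO libraries lay below both WT libraries (36.2% of all genes), in 7 above (32% of all genes), and in 33 they overlapped. With no filter on low values 0 members passed in either direction, with 3 higher and 16 lower at an unadjusted p under 0.05 by limma, and after rescaling each library to a total of 1000000 or by median ratios 8 and 9 members fell (9.43% and 12.6% of all genes).

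The genes that fell belonged to both subunits. Of 51 large-subunit genes 10 fell and 1 rose, and of 26 small-subunit genes 4 fell and 1 rose, with medians of -0.11 and -0.13. Of 46 genes with a bacterial counterpart 10 fell and 1 rose, and of 31 mitochondria-specific genes 4 fell and 1 rose. Of the Mrps18 paralogs, Mrps18c was counted with a bacterial counterpart, and Mrps18a and Mrps18b as mitochondria-specific despite their bacterial ancestor. The remaining call was Mrps36. These shares were not tested against each other.

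**Figure D2:**
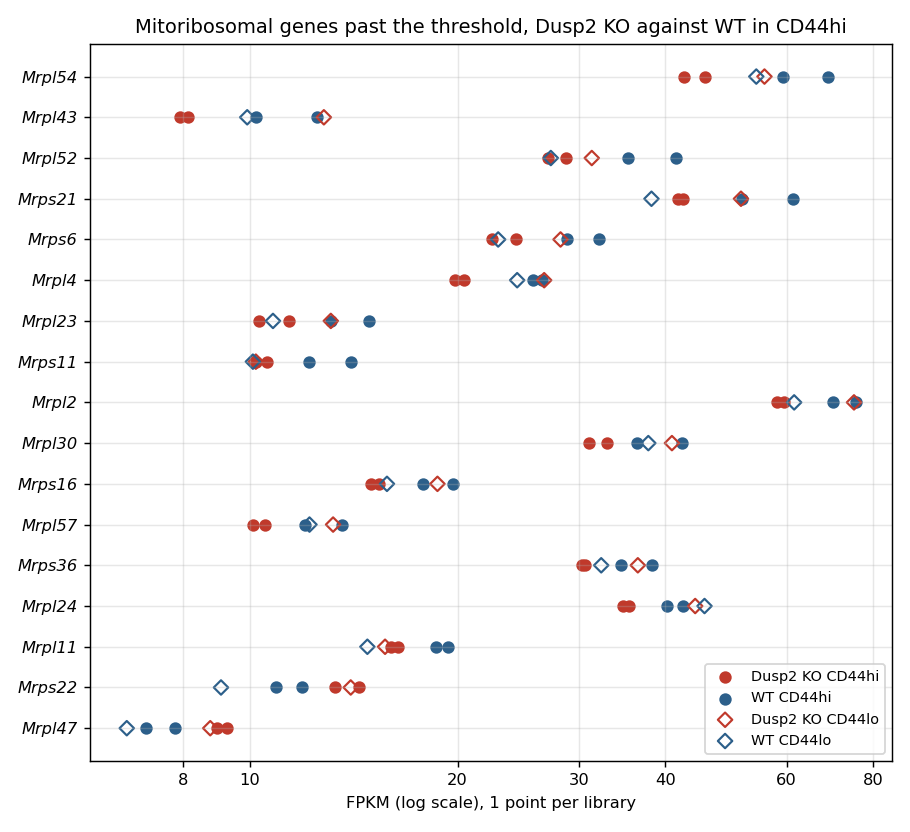
FPKM on a log axis of the 17 genes past the threshold between Dusp2 KO and WT CD44hi, with 1 point per library, lower genes at the top and the 2 higher ones at the bottom. Filled points are CD44hi and open points CD44lo; in all 17 rows the filled red points of Dusp2 KO stand apart from the filled blue points of WT, while the open points often do not follow them.

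Mrpl54, a mitochondria-specific protein of the large subunit, had the largest fall among the members called. It was at 42.6 and 45.6 FPKM in Dusp2 KO CD44hi and 59.3 and 68.9 FPKM in WT CD44hi, 55.7 FPKM in Dusp2 KO CD44lo and 54.2 FPKM in WT CD44lo. The CD44hi genotypes were apart and the CD44lo libraries nearly level (log2 fold change in CD44hi -0.53, SE 0.087, limma adjusted p = 0.009, n = 2 each).

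Mrpl43 and Mrpl52, also mitochondria-specific, followed. Mrpl43 was at 7.93 and 8.12 FPKM in Dusp2 KO CD44hi and 10.2 and 12.5 FPKM in WT CD44hi, 12.8 FPKM in Dusp2 KO CD44lo and 9.91 FPKM in WT CD44lo (log2 fold change in CD44hi -0.44, SE 0.10, limma adjusted p = 0.023). Mrpl52 was at 27.0 and 28.7 FPKM in Dusp2 KO CD44hi and 35.3 and 41.4 FPKM in WT CD44hi, 31.3 FPKM in Dusp2 KO CD44lo and 27.3 FPKM in WT CD44lo (log2 fold change in CD44hi -0.44, SE 0.088, limma adjusted p = 0.016). In CD44lo both genes were higher in the Dusp2 KO library, the other way round. Mrpl54, Mrpl43 and Mrpl52 were the 3 genes that passed with each CD44hi library left out in turn and with either correction for length described further on.

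In the small subunit, Mrps21 and Mrps6, with bacterial counterparts, fell. Mrps21 was at 42.5 and 41.8 FPKM in Dusp2 KO CD44hi and 51.6 and 61.2 FPKM in WT CD44hi, 51.5 FPKM in Dusp2 KO CD44lo and 38.2 FPKM in WT CD44lo (log2 fold change in CD44hi -0.41, SE 0.089, limma adjusted p = 0.020). Mrps6 was at 22.4 and 24.3 FPKM in Dusp2 KO CD44hi and 28.8 and 32.1 FPKM in WT CD44hi, 28.2 FPKM in Dusp2 KO CD44lo and 22.9 FPKM in WT CD44lo (log2 fold change in CD44hi -0.37, SE 0.078, limma adjusted p = 0.019). Both genes had their WT CD44lo value near or below the Dusp2 KO CD44hi values. Mrpl4, which lines the exit tunnel of the large subunit, averaged 20.1 ± 0.441 FPKM in Dusp2 KO CD44hi and 26.1 ± 0.577 FPKM in WT CD44hi (SD, n = 2 each), with a log2 fold change of -0.36 (SE 0.062, limma adjusted p = 0.010).

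The other members that fell did so by 0.34 to 0.22 on the log2 scale. They were Mrpl23, Mrps11, Mrpl2, Mrpl30, Mrps16, Mrpl57, Mrps36, Mrpl24 and the stalk-base protein Mrpl11. Mrpl2, near the site of peptide bond formation, averaged 58.8 ± 0.867 FPKM in Dusp2 KO CD44hi and 72.7 ± 4.05 FPKM in WT CD44hi (SD, n = 2 each). Mrpl11 was at 16.0 and 16.4 FPKM in Dusp2 KO CD44hi and 18.6 and 19.4 FPKM in WT CD44hi, the smallest fall of those called (log2 fold change -0.22, SE 0.064, limma adjusted p = 0.049). Of the Mrpl11, Mrpl12 and Mrpl10 group of the stalk, only Mrpl11 passed.

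Chromosome 14 carried 3 members, Mrpl52, Mrps16 and Mrpl57, by the RefSeq table, and all of them were among those that fell. Over all genes 13.8% were called lower, and the share among other genes of this chromosome was not counted. Chchd1, a ribosomal subunit gene of another name on this chromosome, did not pass (limma adjusted p = 0.088). Mrps16 was at 15.0 and 15.4 FPKM in Dusp2 KO CD44hi and 17.8 and 19.7 FPKM in WT CD44hi, 18.7 FPKM in Dusp2 KO CD44lo and 15.8 FPKM in WT CD44lo. Mrpl57 was at 10.1 and 10.5 FPKM in Dusp2 KO CD44hi and 12 and 13.6 FPKM in WT CD44hi, 13.2 FPKM in Dusp2 KO CD44lo and 12.2 FPKM in WT CD44lo. The log2 fold changes of Mrps16 and Mrpl57 in CD44hi were both -0.28, while in CD44lo both were higher in the Dusp2 KO library.

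The 2 members that rose were Mrps22, a mitochondria-specific protein of the small subunit, and Mrpl47, a large-subunit protein with a bacterial counterpart. Mrps22 was at 13.3 and 14.4 FPKM in Dusp2 KO CD44hi and 10.9 and 11.9 FPKM in WT CD44hi, 14 FPKM in Dusp2 KO CD44lo and 9.08 FPKM in WT CD44lo (log2 fold change in CD44hi 0.26, SE 0.077, limma adjusted p = 0.049). Mrpl47 was at 8.97 and 9.26 FPKM in Dusp2 KO CD44hi and 7.08 and 7.79 FPKM in WT CD44hi, 8.76 FPKM in Dusp2 KO CD44lo and 6.63 FPKM in WT CD44lo (log2 fold change in CD44hi 0.26, SE 0.077, limma adjusted p = 0.047). Both genes were higher in the Dusp2 KO libraries of each fraction. Mrpl1 had the same log2 fold change of 0.26 and did not pass (limma adjusted p = 0.082).

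The WT CD44hi libraries differed from each other by about as much as the genotypes did. WT replicate 2 exceeded WT replicate 1 in 74 of the 78 genes, with a median difference of 0.15 on the log2 scale, where all genes had -0.04. Between the Dusp2 KO CD44hi libraries the median was 0.04. Against WT replicate 2, the Dusp2 KO libraries had member medians of -0.19 and -0.18 with 68 and 67 genes lower. Against WT replicate 1, the medians were -0.08 and -0.03 with 53 and 47 genes lower. The size of the fall thus depended on which WT library was used. Without WT replicate 2, 9 members fell and 5 rose, where 18.6% of all genes fell and 13.5% rose. Without WT replicate 1, 35 fell and 0 rose (3 were higher at an unadjusted p under 0.05 by limma), where 20% of all genes fell and 22.2% rose. Leaving out Dusp2 KO replicate 1 or 2 left 5 that fell and 0 that rose (1 and 0 were higher at an unadjusted p under 0.05), where 6.37% and 5.62% of all genes fell and 5.86% and 5.6% rose. The share of reads from the 13 mitochondrially encoded genes, whose mRNAs these ribosomes translate, was 2.72% and 2.93% in Dusp2 KO CD44hi and 2.14% and 2.02% in WT CD44hi. That share was 3.78% in Dusp2 KO CD44lo and 2.55% in WT CD44lo. Its part in the results was not tested. In bulk RNA, fewer cells of a type and less RNA per cell cannot be told apart.

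In CD44lo cells, with 1 library per genotype and no test, the members lay the other way. Their median difference, Dusp2 KO minus WT, was 0.20 on the log2 scale, against -0.01 over all genes. It was positive in 70 and negative in 8 of the 78 genes (89.7% positive, against 48.4% of all genes). On the log2(FPKM + 1) scale no member was 1.5-fold higher or lower, against 2.96% and 3.98% of all genes. The differences ran from -0.09 for Mrpl10 to 0.57 for Mrps22, followed by 0.51 for Mrps2. Among the members that fell in CD44hi, Mrps21 was at 0.42, Mrpl43 at 0.34, Mrpl2 at 0.28, Mrpl52 at 0.19 and Mrpl54 at 0.04.

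**Figure D3:**
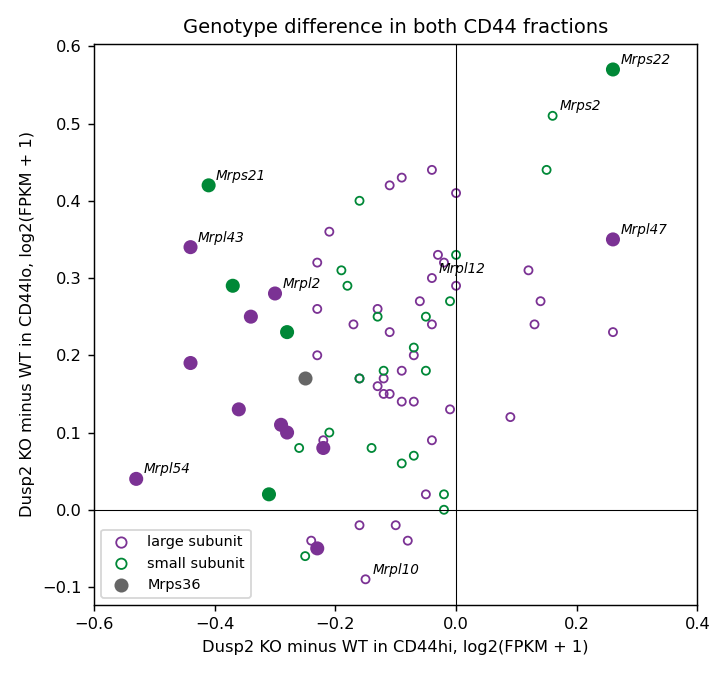
Each point is 1 of the 78 genes, with Dusp2 KO minus WT in CD44hi (2 libraries each) on the x axis and in CD44lo (1 library each) on the y axis, both in log2(FPKM + 1). Large-subunit genes are purple, small-subunit genes green and Mrps36 grey, with filled points past the threshold in CD44hi; most points lie in the upper left, lower in CD44hi and higher in CD44lo.

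The difference between the fractions in the genotype effect was tested as an interaction. Of the 78 members 2 passed, both lower (1.49% of all genes), and 0 were higher (2.73% of all genes, 4.22% in either direction). By limma no member was higher even at an unadjusted p under 0.05, where 36 were lower. With limma voom on recovered reads 0 were higher as well. The share of all genes past this unadjusted cut was not counted, here or elsewhere in these results, so such counts have no background beside them. Mrps21 had an interaction of -0.83 on the log2 scale (SE 0.154, limma adjusted p = 0.044) and Mrpl2 one of -0.59 (SE 0.116, limma adjusted p = 0.048). Mrpl2 was at 59.4 and 58.1 FPKM in Dusp2 KO CD44hi and 69.9 and 75.6 FPKM in WT CD44hi, 75.1 FPKM in Dusp2 KO CD44lo and 61.5 FPKM in WT CD44lo. The interaction was negative in 77 of the 78 genes (98.7%, against 50.8% of all genes), with a median of -0.31, against -0.01 over all genes. With the trend on gene length removed, neither gene passed (limma adjusted p = 0.071 for Mrps21 and 0.12 for Mrpl2), and the median was -0.22. With no filter 0 passed (27 lower at an unadjusted p under 0.05 by limma), and with either scaling 1 passed. Without WT CD44hi replicate 1, 46 members were lower while 14.6% of all genes were, and without replicate 2, 15 were lower while 9.42% of all genes were. The single CD44lo libraries, one of them the shallowest, enter all of these values.

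**Figure D4:**
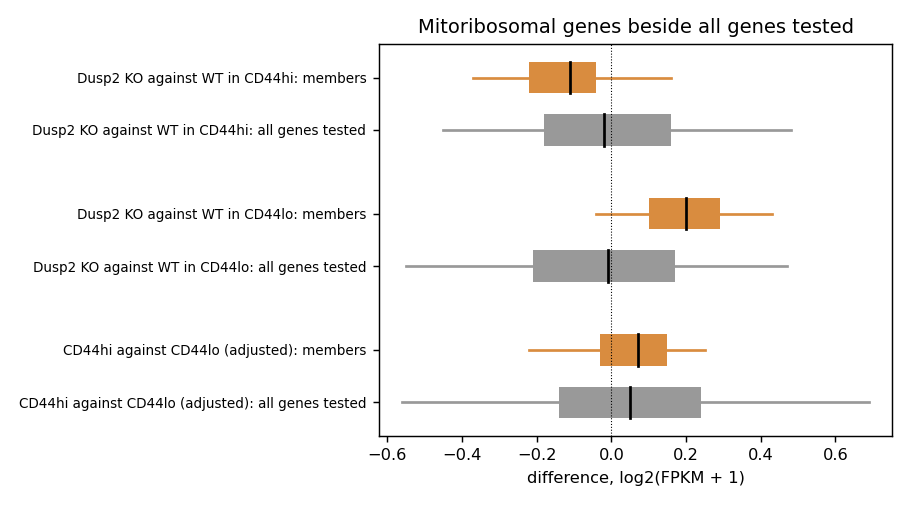
Boxes span the middle 50% of the log2(FPKM + 1) differences, lines the 5% to 95% range and the black bar the median, for the 78 genes (orange) and all 9691 genes tested (grey). The members' median is -0.11 for Dusp2 KO against WT in CD44hi, 0.20 in CD44lo and 0.07 for CD44hi against CD44lo.

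Between CD44hi and CD44lo cells, in an additive fit that averages over the genotypes, these genes moved little. Of the 78, 3 rose and 1 fell in CD44hi, and 74 did not pass, whereas 16.6% of all genes rose and 10.8% fell. The median was 0.07 over the members and 0.05 over all genes, and the median absolute difference 0.11 and 0.20. All 4 CD44hi libraries lay above both CD44lo libraries in 15 members and below them in 3 (24.6% and 15.1% of all genes).

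Mrpl42 rose, with 21.8 and 21.9 FPKM in Dusp2 KO CD44hi and 22.6 and 25.1 FPKM in WT CD44hi, 19.2 FPKM in Dusp2 KO CD44lo and 17.3 FPKM in WT CD44lo (log2 fold change 0.31, SE 0.090, limma adjusted p = 0.040). Mrps27, an RNA-binding protein of the small subunit, rose with 17.6 and 18.2 FPKM in Dusp2 KO CD44hi and 18.6 and 19.0 FPKM in WT CD44hi, 15.3 FPKM in Dusp2 KO CD44lo and 14.5 FPKM in WT CD44lo (log2 fold change 0.28, SE 0.075, limma adjusted p = 0.030). In both genes the CD44lo libraries were the lowest. Mrpl49 rose by 0.26 (SE 0.071, limma adjusted p = 0.033). Mrpl9 fell, with 24.4 and 24.9 FPKM in Dusp2 KO CD44hi and 24.3 and 27.7 FPKM in WT CD44hi, 34.7 FPKM in Dusp2 KO CD44lo and 30.1 FPKM in WT CD44lo (log2 fold change -0.34, SE 0.093, limma adjusted p = 0.033). Both CD44lo libraries stood above all CD44hi libraries for this gene.

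The direction for the members as a whole differed by genotype. CD44hi minus CD44lo had a member median of -0.10 in Dusp2 KO and 0.21 in WT, where all genes had 0.05 in each. The additive fit averages these opposite directions and counts their difference as residual spread. Its small median and few calls therefore do not show that the fractions were alike within a genotype. Without the Dusp2 KO CD44lo library 17 members rose, 0 fell (also 0 at an unadjusted p under 0.05 by limma) and the median was 0.21, where 15.4% of all genes rose and 10.7% fell. Without the WT CD44lo library 1 rose, 13 fell and the median was -0.1, where 23.6% of all genes rose and 16.5% fell. Mrpl42, Mrps27, Mrpl49 and Mrpl9 all lost the call when any one of 3 of the 4 CD44hi libraries was left out, and 1 of them kept it without WT replicate 2.

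These genes are short, and differences between the libraries ran with gene length over the whole transcriptome. Their merged exons had a median of 2394 bases (607 to 8631), against 4279 bases over all genes tested. Of 10 groups of genes of about equal number, ordered by length, the 2 shortest held 39 of the 78 members. For Dusp2 KO minus WT in CD44hi the median of all genes ran from -0.17 in the shortest group to 0.1 in the longest, and in CD44lo from 0.11 to -0.22. Between the WT CD44hi replicates, 2 minus 1, it ran from 0.05 to -0.13. The short members thus lay among lengths where the median of all genes was negative in CD44hi and positive in CD44lo, Dusp2 KO minus WT. The part of length in the members' differences was not tested.

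**Figure D5:**
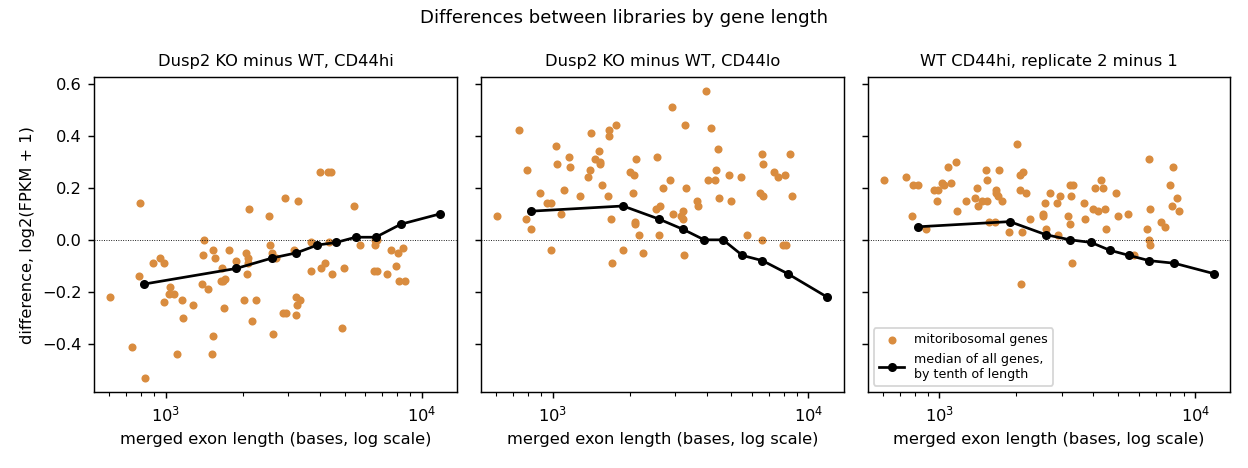
Differences in log2(FPKM + 1) against merged exon length in bases on a log axis, for Dusp2 KO minus WT in CD44hi, the same in CD44lo, and WT CD44hi replicate 2 minus replicate 1. Orange points are the 78 genes and the black line is the median of all genes in each of 10 groups by length, which slopes up in the CD44hi comparison (from -0.17 to 0.1) and down in the other panels.

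Over all genes the Spearman correlation of the difference with length was 0.27 for Dusp2 KO minus WT in CD44hi and -0.33 in CD44lo, and over the 78 members it was 0.36 and -0.04. For the interaction it was 0.48 over all genes and 0.3 over the members. These are descriptions across genes that share the same libraries and depth, and genes are not independent replicates. Of the 31 members with merged exons under 2000 bases 7 passed in Dusp2 KO CD44hi, all lower (median -0.17), and of the 47 longer ones 8 fell and 2 rose (median -0.09). With a loess trend on gene length removed from each library, 8 members fell and 3 rose (14.1% and 14.3% of all genes), and with one on transcript length 9 fell and 1 rose (13.4% and 13.1% of all genes). Of the 17 members called, 8 passed under both corrections, Mrpl54 with an adjusted p of at most 0.012 by limma. In CD44lo, uncorrected, the median was 0.24 over the members under 2000 bases (90.3% positive) and 0.18 over the longer ones (89.4% positive). With the gene length trend removed, the CD44lo median over all members was 0.16, with 82.1% positive.

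Related lists of mitochondrial translation were read in CD44hi in the same way, where 13.8% of all genes were called lower and 12.9% higher. Over 5 ribosomal subunits with other names the median was -0.27, against -0.11 over the members. In 4 of them both Dusp2 KO libraries lay below both WT libraries, and 3 were lower at an unadjusted p under 0.05 by limma. For the translation factors and aminoacyl-tRNA synthetases that follow, the medians were 0.01 and -0.01. These 2 lists hold longer genes, with median merged exon lengths of 3762 and 4958 bases. The median length was 2494 bases for the 5 subunits and 2394 bases for the members. The part of length in these medians was not tested. Of the 5 subunits 1 passed, Aurkaip1, which fell, at 40.4 and 41.9 FPKM in Dusp2 KO CD44hi and 48.1 and 52.0 FPKM in WT CD44hi (limma adjusted p = 0.028). Of 12 measured translation factors 2 passed, both higher. Gfm1, the elongation factor that moves the ribosome along the mRNA, was at 31.3 and 32.7 FPKM in Dusp2 KO CD44hi and 26.6 and 24.6 FPKM in WT CD44hi (log2 fold change 0.31, SE 0.068, limma adjusted p = 0.021). Taco1, an activator of cytochrome oxidase translation, was the other. Of 22 mitochondrial aminoacyl-tRNA synthetases only Mars2 passed, at 3.40 and 3.61 FPKM in Dusp2 KO CD44hi and 2.12 and 1.75 FPKM in WT CD44hi (log2 fold change 0.62, SE 0.101, limma adjusted p = 0.0086).

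Of 25 genes of ribosome assembly and rRNA modification 2 rose and 2 fell. The large-subunit assembly genes Gtpbp10 and Fastkd2 rose by 0.45 and 0.31, and the rRNA methyltransferase Mrm1 fell by 0.42. Of 13 genes of mitochondrial transcription and RNA stability, 0 passed by limma (3 higher and none lower at an unadjusted p under 0.05). In CD44hi against CD44lo, 3 translation factors, 4 synthetases and 2 assembly genes rose, with Gfm1 at 0.39, Fastkd2 at 0.39 and Gtpbp10 at 0.53, and every call in those lists was higher. The transcription and RNA stability list had 2 that rose, Elac2 and Twnk among them, and 1 that fell.

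The cytosolic ribosomal protein genes, also short, had medians of the members' sign for genotype in each fraction and for the interaction. For CD44hi against CD44lo the sign was opposite, with a median of -0.17, against 0.07 for the members. Of 85 cytosolic genes, 24 passed in Dusp2 KO CD44hi, all lower, where 13.8% of all genes were called lower. Their median was -0.31, against -0.11 for the members. Their median in CD44lo was 0.17, with 80 higher and 5 lower, against 0.20 for the members. The interaction had a median of -0.48 in the cytosolic genes and -0.31 in the members. These differences between the lists were not tested.

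Some values depend on how reads of overlapping genes were assigned, which the sources used here do not state. In the GENCODE M21 annotation, 23 members share exon bases with another coding gene, and 7 of these are among the 21 members called in any comparison. They are Mrpl43 with Twnk, Mrpl24 with Rrnad1, Mrpl47 with Actl6a and Ndufb5, Mrpl49 with Syvn1, Mrpl9 with Oaz3 and Mrps11 with Mrpl46, all on opposite strands, and Mrps6 with Slc5a3 on the same strand. Without the strand setting, reads of the partners on opposite strands cannot be told apart, and those of Mrps6 and Slc5a3 cannot be told apart by strand at all.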

How the data were processed

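The authors deposited 1 table of FPKM values with 18122 rows and a column for each of the 6 libraries. Every column matched a sample title, so 0 value columns were left unused. The submitters' processing notes list HISAT2 2.0.5 and 2 builds, mm39 and hg38, with no role for either. Which counter, strand setting and annotation were used is not given in the sources used here. RNA extraction used Trizol, per the labels' protocols. The description also names 10X Genomics, but the values are bulk values per library.

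FPKM values were put on the log2 scale after adding a pseudocount of 1. The 9691 genes whose mean reached 1 FPKM were tested with limma 3.58.1 (R 4.3.3), with a variance trend, two-sided, and Benjamini-Hochberg adjustment at 0.05. Dusp2 KO against WT in CD44hi and the interaction came from a fit with a coefficient for each group, which leaves 2 residual degrees of freedom. CD44hi against CD44lo came from an additive fit with genotype, which leaves 3. The CD44lo pair was described without a test. The members, gene lists, naming rule and alternatives were chosen with earlier results of these data known. The genes named are the 4 highest and 4 lowest members, up to 6 rises and 6 falls past the threshold per comparison, members with stated roles, those on chromosome 14 and up to 3 genes per related list. Mrpl1, Mrps2, Mrpl23, Mrps11, Mrpl30, Mrps36 and Mrpl24 fall outside it and were named after their values were seen.

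Whole reads were recovered from the FPKM steps. Of the rows with a value in at least 2 libraries, all 16220 (100%) gave whole numbers within 1e-06 reads, against 26 of 500 perturbed rows. The recovered gene lengths equal the merged exon length of GENCODE M21 for all 78 members. Recovered reads entered the depths, the shares of reads, the lowest read count of a member and the voom alternative. The recovered gene lengths entered the results by gene length and the removal of the gene length trend. The method was tested on simulated data. RefSeq sequences are on GRCm38.p6, and the build of the deposited values is not stated, so no coordinates of it are given. Alternatives were another pseudocount, no filter, 2 scalings, removal of a length trend (loess, span 0.5), a replicate block, voom and each library left out.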

Additional observations from a re-analysis of the deposited data

Results flagged for a closer look

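For Mrps21 and Mrpl2, the genotype difference was not the same in both CD44 fractions by the interaction test in limma with the main settings. Mrps21 had -0.83 on the log2 scale, lower in Dusp2 KO in CD44hi and higher in the Dusp2 KO CD44lo library. Mrpl2 had -0.59 with the same pattern. Mrps21 passed with either scaling, but Mrpl2 did not (limma adjusted p = 0.064 after rescaling and 0.051 with median ratios). Neither gene passed without the filter (limma adjusted p = 0.16 for Mrps21 and 0.14 for Mrpl2) or with either length trend removed. Without Dusp2 KO CD44hi replicate 1 or 2, the interaction of Mrpl2 was -0.6 or -0.57. Each fraction comparison in CD44lo rests on 1 library per genotype.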

How the results depend on the processing

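The member median for Dusp2 KO against WT in CD44hi (-0.11) kept its sign in all alternatives run, from -0.18 to -0.05 with a library left out. Its counts moved more. The 2 higher and 15 lower members became 0 and 0 with no filter on low values (3 and 16 at an unadjusted p under 0.05 by limma), where all genes gave 1 higher and 1 lower. There were 8 lower after rescaling to a total of 1000000, 9 with median-ratio scaling, 8 with the gene length trend removed, and 9 lower and 1 higher with the transcript length trend removed, which was chosen after seeing the data. Leaving out a library gave 0 to 5 higher and 5 to 35 lower. Of the 17 members called, 17 kept the call with a pseudocount of 0.1, 15 with voom, 10 after rescaling, 11 with median-ratio scaling and 10 with either length trend removed. Over all genes, the split in this comparison was 1292 higher and 914 lower after rescaling, against 1248 and 1338.

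For CD44hi against CD44lo, 3 higher and 1 lower became 9 higher after rescaling (18.6% of all genes). Median-ratio scaling gave 0 higher and 2 lower (13.7% and 13.2% of all genes). Removing the gene length trend gave 7 higher and 3 lower (16% and 16.3% of all genes), and the transcript length trend 3 lower (16.4% of all genes). The counts were 1 higher with voom (15.8% of all genes) and 0 lower without the filter (4.6% of all genes). With a library left out they ranged from 0 to 17 higher and 0 to 13 lower, and the median (0.07) from -0.1, a reversal without the WT CD44lo library, to 0.21. For the interaction, 2 lower became 0 without the filter, 1 with either scaling, 0 with either length trend removed, and 2 to 46 with a library left out, where it could not be fitted without a CD44lo library. Its median (-0.31) was -0.18 after rescaling and -0.22 with either length trend removed, and -0.37 to -0.25 with a library left out. The CD44lo median (0.20) was 0.1 after rescaling, which left the median of all genes at -0.11 there and at 0.13 in the interaction, against -0.01 in both before. The causes were not tested.

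Replicate numbers recur in both genotypes, and the labels do not say whether same-numbered samples belong together. Deviations of same-numbered CD44hi libraries correlated at r = 0.02 over all genes and 0.17 over the members. Among the 78 members, replicate 2 was the higher in 74 in WT and in 54 in Dusp2 KO. With so few libraries these values cannot settle whether same-numbered samples were handled together. With a replicate block, 23 members fell and 3 rose in Dusp2 KO CD44hi (18.2% and 16.1% of all genes). Between the fractions 0 rose and 0 fell (10.3% and 6.21% of all genes), with 2 and 3 at an unadjusted p under 0.05 by limma. In the interaction 22 were lower (7.68% of all genes). With 2 libraries per CD44hi genotype and 1 per CD44lo, depth is no limit for these genes, but the number of libraries is.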
